A study of Mus musculus with 24 samples.

Results

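The interleukin-1 ligands, their receptors and the inflammasome components were described as 9 genes chosen by symbol from the 2 deposited count tables: the ligand genes Il1a, Il1b and Il18, the antagonist Il1rn, the decoy receptor Il1r2, the signalling receptor Il1r1 and its co-receptor Il1rap, the inflammasome sensor Nlrp3 and the protease Casp1. All 9 had a row in both tables, 9 of 18474 rows in one and 9 of 22505 rows in the other, and all 9 passed the filter on low counts in both. RNA came from bulk preparations labelled as neutrophils of mice of the strain NOD.C3C4. One table holds 9 libraries: 3 of untreated blood, 2 of treated blood, 2 of untreated liver and 2 of treated liver. Treatment was 10 doses, given into a vein, of PDC166-coated nanoparticles, and untreated mice are labelled only as such. The other table holds 15 liver libraries of mice that had all been given these particles together with an antibody, 3 libraries each for the isotype control, anti-GCF and anti-IL21R and 2 each for anti-TGFb, anti-IL35 and anti-IL10. The labels call all but the isotype blocking antibodies, do not spell out GCF and give no age. They leave unsaid whether replicates are separate animals, so the p-values measure only the spread between these samples.

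Interleukin-1 alpha and interleukin-1 beta bind the same receptor, Il1r1, which signals only together with the co-receptor Il1rap. Il1rn encodes a soluble antagonist that occupies the receptor without signalling, and Il1r2 encodes a receptor without a signalling domain that captures the ligands as a decoy. Interleukin-1 beta and interleukin-18 are made as inactive precursors that caspase-1 cuts, after a sensor such as Nlrp3 has assembled an inflammasome. Neutrophils are a known source of Il1b and are known to carry and shed the decoy receptor.

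Depth was 34.7 to 46.4 M counts per library for blood and liver and 23.6 to 47.5 M for the antibody libraries. Each log2 fold change below is given ± its standard error. Levels are CPM, counts per 1 M after scaling for library composition, and each table was scaled and tested by itself. The libraries labelled neutrophil differed in composition. The 9 neutrophil markers summed to 30690.3 to 32362 CPM in untreated liver and 159683 to 163383 CPM in treated liver, and the 10 hepatocyte markers to 11885 to 15341 and 57.6 to 67.4 CPM. In the antibody table the neutrophil markers summed to 18695 to 24703 CPM with anti-GCF and 117351 to 139095 CPM with isotype, and the 11 Kupffer cell and macrophage markers to 4784 to 9525 and 111 to 401 CPM. None of these markers was at 0 in a library of the groups named. The anti-IL35 libraries stood apart from each other, with 122 to 1787 CPM of Kupffer cell and macrophage markers. In bulk RNA, fewer cells of a type and less RNA per cell cannot be told apart. Library numbers in the sample descriptions run in one range for untreated and in another for treated mice of the 9-library table, so a difference tied to that numbering and the effect of treatment cannot be told apart.

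The promoters of 4 members are shown because the results turn on the contrast between the ligand Il1b, the antagonist Il1rn and the decoy Il1r2, and on the separate pattern of Il18. Each line gives the 250 bases before the RefSeq start site on build GRCm38.p6, 5′ to 3′ on the strand of the gene, and capitals mark matches to the motifs listed after them. The windows are chr2:129371140-129371389, minus strand, chr2:24336610-24336859, plus strand (1 of 3 RefSeq start sites), chr1:40085843-40086092, plus strand, and chr9:50554450-50554699, plus strand. The Il1r2 window lies inside the gene as placed by GENCODE M21, which starts at 40074079.
Il1b: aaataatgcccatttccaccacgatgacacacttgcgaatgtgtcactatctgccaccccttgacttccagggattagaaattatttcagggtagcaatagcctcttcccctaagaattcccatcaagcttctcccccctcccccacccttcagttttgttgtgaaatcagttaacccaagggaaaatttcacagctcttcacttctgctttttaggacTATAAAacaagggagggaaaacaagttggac
Il1rn: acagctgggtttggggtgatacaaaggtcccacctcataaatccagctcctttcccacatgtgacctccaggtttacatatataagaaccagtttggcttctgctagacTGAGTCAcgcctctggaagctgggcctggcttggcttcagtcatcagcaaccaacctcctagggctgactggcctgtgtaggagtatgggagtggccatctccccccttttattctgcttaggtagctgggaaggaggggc
Il1r2: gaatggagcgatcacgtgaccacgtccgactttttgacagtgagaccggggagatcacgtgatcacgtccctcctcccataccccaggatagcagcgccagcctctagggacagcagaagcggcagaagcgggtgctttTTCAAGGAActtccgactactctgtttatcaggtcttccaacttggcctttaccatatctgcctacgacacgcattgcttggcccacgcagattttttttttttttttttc
Il18: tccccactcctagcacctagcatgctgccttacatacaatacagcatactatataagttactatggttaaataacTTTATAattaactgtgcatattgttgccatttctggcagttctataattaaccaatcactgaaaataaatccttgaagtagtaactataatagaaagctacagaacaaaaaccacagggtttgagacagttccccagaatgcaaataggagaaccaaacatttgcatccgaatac
Motifs searched on both strands were the TATA box TATAAA, AP-1 as TGANTCA, C/EBP as TTGCNNAA, STAT as TTCNNNGAA, PU.1 as GAGGAA, and the NF-kB consensus. Of 32841 mouse promoter windows of this length, 12.4% held the TATA box letters, 6.75% AP-1, 9.57% C/EBP, 7.02% STAT, 23.3% PU.1 and 7.25% the NF-kB consensus. The Il1b window held 1 TATA box, at position −31 from the start site. In the Il1rn window there was 1 AP-1 match at −141, in the Il1r2 window 1 STAT match at −111, and in the Il18 window 1 TATA box on the opposite strand at −175. The windows of the other Il1rn start sites, at 24345291 and 24345371, are not shown and held no match to AP-1 or any other motif searched. No 2 matches in the 4 windows shown overlapped, and a match is a description of the letters only.

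The comparison of treated with untreated liver asks what the particle therapy changes in liver neutrophils. Of the 9 members 6 differed in edgeR's quasi-likelihood test at an adjusted p under 0.05, where 64.1% of all tested genes did. Casp1, Nlrp3 and the decoy Il1r2 rose, as did 27.8% of all genes, and Il18, Il1b and Il1rap fell, as did 36.3%. The members' median log2 fold change was −0.86, beside −0.29 over all tested genes. All 9 members had groups that did not overlap, as did 86.3% of all genes. The liver changes stood beside the hepatocyte and neutrophil marker sums given above, whose part was not tested. In blood, the same therapy went with 2 called members against 33.6% of all genes, Il1rn lower (as 16.2% of all genes) and Il1r2 higher (as 17.4%), with a median of 0.28 over the members and 0.04 over all genes. Treated and untreated blood did not overlap for 6 members and for 61.1% of all genes. Leaving out treated blood replicate 3 took the count of called members to 0 and the share of all genes called to 9.98%, with Il1rn at an adjusted p of 0.0505 and Il1r2 at 0.157.

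Liver and blood were also set against each other within each arm. In untreated mice 8 members differed between the tissues, where 64.3% of all genes did: Il18 and Il1r1 were higher in liver, as 35.6% of all genes were, and Il1b, Il1rn, Il1r2, Il1rap, Nlrp3 and Casp1 were lower, as 28.7% were. In treated mice 4 members differed, where 21.3% of all genes did, and these were Il1b, Il18, Il1r2 and Il1rap, each lower in liver, as 11.6% of all genes were. Without regard to the test, liver and blood did not overlap for 8 members in untreated mice (73.4% of all genes) and for 9 in treated mice (76.0%). The treatment effect itself differed between liver and blood for 7 members, where 54.7% of all genes did. The effect in liver was the more positive one for Il1rn, Nlrp3 and Casp1, as for 23.3% of all genes, and the more negative one for Il1a, Il18, Il1r1 and Il1rap, as for 31.4%. The members' median log2 difference was −1.46 in untreated mice (0.10 over all genes), −1.06 in treated mice (0.003) and −0.20 for the difference between the effects (−0.30). These 5 comparisons share libraries with one another. Neutrophil markers summed to 110666 to 267525 CPM in untreated and 82712 to 85710.0 CPM in treated blood, and platelet markers to 261 to 563 and 1541 to 1564 CPM. The part of other cells in these differences was not tested.

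**Figure D1:**
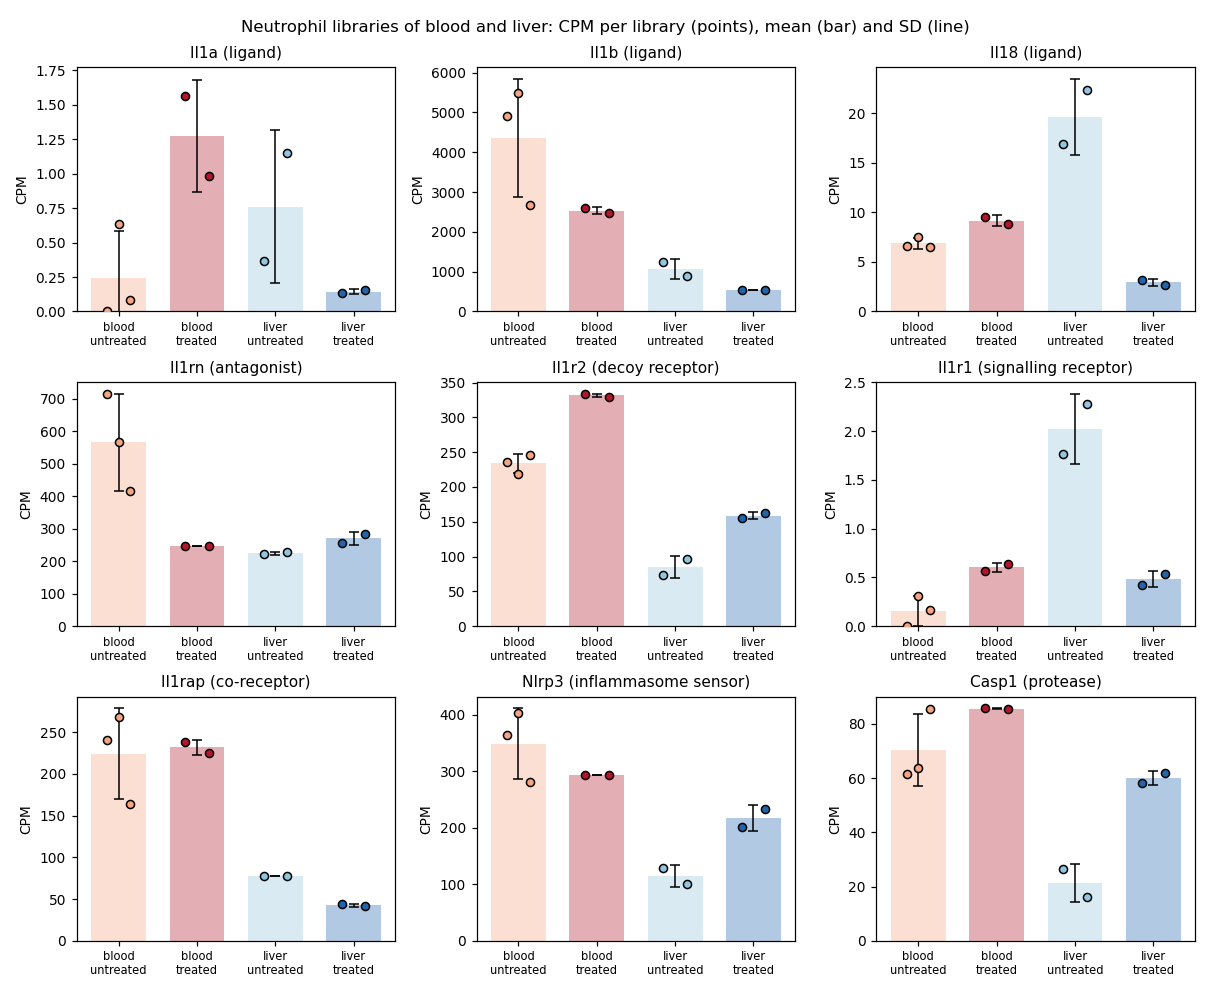
CPM of the 9 members in each of the 9 blood and liver libraries. Each panel is 1 gene with a linear axis from 0, points are libraries, bars are group means and lines are the SD. Il1b is between 2473 and 5476 CPM in every blood library, and Il18 is highest in the untreated liver libraries.

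Blocking antibodies were compared with the isotype control to ask how the liver neutrophils of treated mice change when a cytokine signal is blocked. With anti-GCF 5 members differed, where 57.8% of all genes did: Il1b, Il18 and Casp1 rose, as did 31.6% of all genes, and Il1r2 and Nlrp3 fell, as did 26.3%. With anti-TGFb 3 members differed, where 27.6% of all genes did, and Il1rn, Il1r2 and Nlrp3 were lower, as 10.0% of all genes were. With anti-IL35, 2 members differed beside 9.33% of all genes, Il1b higher (4.81% of all genes) and Il1r2 lower (4.51%). Under anti-IL10 1 member, Il1r2, was lower, beside 17.6% of all genes called and 6.98% called lower. Under anti-IL21R 0 members differed in edgeR's quasi-likelihood test beside 2.23% of all genes, 0 had an unadjusted p under 0.05, and DESeq2 also called 0, beside 9.39% of all genes. In the test of any difference among the 6 antibody groups 7 members were called, beside 76.4% of all genes, and Il1r1 and Casp1 were not. The members' median log2 fold change was −0.29 with anti-GCF (0.11 over all genes), 0.33 with anti-IL21R (−0.02), −0.32 with anti-TGFb (0.01), 0.53 with anti-IL35 (0.05) and −0.02 with anti-IL10 (0.03). Libraries did not overlap with isotype for 6 members with anti-GCF (66.8% of all genes), 6 with anti-TGFb (59.2%), 5 with anti-IL10 (48.7%), 4 with anti-IL35 (33.6%) and 2 with anti-IL21R (25.5%). Single libraries decided several of the counts of called members: the count was 0 for anti-IL35 without its replicate 2 (1.13% of all genes called) and 6 without its replicate 1 (20.1%), and 0 for anti-IL10 without its replicate 1 (1.64%). Il1rn and Nlrp3 lost their anti-TGFb calls without isotype replicate 2 or 3 or either anti-TGFb library. Beside the anti-TGFb changes, markers of dendritic cells summed to 128 to 193 CPM against 18.2 to 41.0 with isotype, of T and NK cells to 609 to 649 against 248 to 362 and of hepatocytes to 495 to 610.4 against 82.0 to 297. With anti-IL10 the T and NK cell markers summed to 505 to 509 CPM and the hepatocyte markers to 317 to 319 CPM. Neutrophil markers summed to 68253 to 74453 CPM with anti-TGFb and 36614 to 77497 CPM with anti-IL10, against 117351 to 139095 CPM with isotype. The part of these cells was not tested. All 5 comparisons share the 3 isotype libraries.

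**Figure D2:**
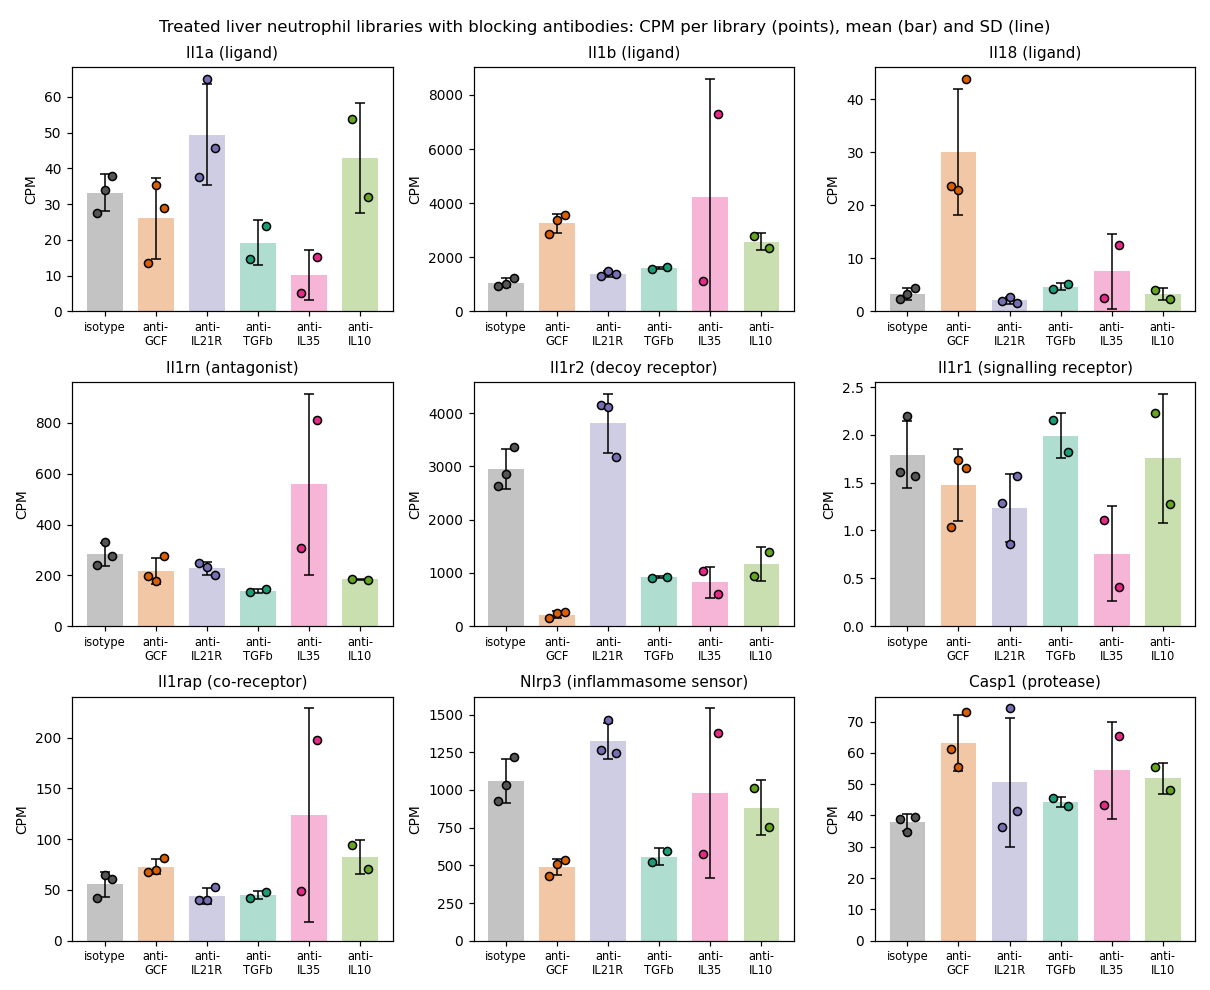
CPM of the 9 members in each of the 15 antibody libraries, all from livers of treated mice. Panels, points, bars and lines are as for blood and liver, with a linear axis from 0. Il1r2 lies at 2635 to 3368 CPM with isotype and at 145 to 264 CPM with anti-GCF, and the 2 anti-IL35 libraries differ widely for Il1b, Il1rn and Il1rap.

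Il1b, the gene of the main secreted interleukin-1 ligand of myeloid cells (chromosome 2, 129364570 to 129371139 on mm10, minus strand), was the most abundant member per length of transcript in 8 of the 10 groups. Its CPM in untreated blood was 4911, 5476 and 2675 in replicates 1 to 3. In treated blood it was 2593 and 2473. All 3 untreated libraries lay above both treated ones, but replicate 3 lay close to them, and the log2 fold change was −0.78 ± 0.30 (adjusted p = 0.0685), which did not pass in edgeR's test. DESeq2 gave an adjusted p of 0.024. Without untreated blood replicate 3 the difference was −1.04 with an adjusted p of 0.00143.

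In untreated liver Il1b stood at 1253 and 889 CPM. In treated liver it stood at 540.4 and 541 CPM. The treated libraries were nearly equal and both below the untreated ones, and Il1b fell by a log2 fold change of −0.99 ± 0.32 (adjusted p = 0.0219). The call was lost under upper-quartile scaling (adjusted p = 0.0918), with a block for library-name number (0.128) and without untreated replicate 1 (0.256), treated replicate 1 (0.0947) or treated replicate 2 (0.101). All liver libraries lay below all blood libraries. The log2 difference of liver from blood was −2.02 ± 0.31 (adjusted p = 0.000342) in untreated and −2.23 ± 0.33 (adjusted p = 0.00174) in treated mice, and the treatment effects in the 2 tissues differed by −0.20 ± 0.43 (adjusted p = 0.71), with a 95% interval of −1.17 to 0.76.

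Among the antibody libraries, isotype libraries held 942, 1002 and 1249 CPM of Il1b. The anti-GCF libraries held 2862, 3363 and 3552 CPM. All anti-GCF libraries were above all isotype libraries, and Il1b rose by a log2 fold change of 1.61 ± 0.45 (adjusted p = 0.00787), beside the lower neutrophil and higher macrophage marker sums given above, whose part was not tested. In anti-IL10 libraries Il1b was at 2797 and 2354 CPM, in anti-TGFb libraries at 1569 and 1635 CPM, and in anti-IL21R libraries at 1294, 1499.5 and 1387 CPM. Each of these 3 groups lay above the isotype libraries without overlap, but none passed the test, with log2 fold changes of 1.27 ± 0.48 (adjusted p = 0.0813), 0.59 ± 0.48 (adjusted p = 0.388) and 0.39 ± 0.44 (adjusted p = 0.631). For anti-IL10 the adjusted p was 0.0402 in DESeq2, 0.0327 in a fit of only these 2 groups and 0.0475 with a block for library-name number, and for anti-TGFb it was 0.0263 in a fit of only the 2 groups.

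With anti-IL35 the 2 libraries held 1135 and 7298 CPM of Il1b, replicate 1 within the isotype range and replicate 2 the highest of all 15 libraries. The fitted log2 fold change was 1.99 ± 0.49 (adjusted p = 0.0266), but without replicate 2 it was 0.09 (adjusted p = 0.873). The call was also lost without isotype replicate 1, 2 or 3 (0.0768, 0.0587 and 0.0653), without the anti-GCF libraries (0.0604), in a model of just this pair of groups (0.307) and with a block for title number (0.0643) or library-name number (0.0549). The same replicate 2 had the higher sum of Kupffer cell and macrophage markers of the pair, 1787 against 122 CPM, and of monocyte markers, 1524 against 324 CPM, and their part in the Il1b difference was not tested.

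Il1a, the gene of the other interleukin-1 ligand (chromosome 2, 129299610 to 129309972, minus strand), was near the limit of counting in blood and liver, at 0 to 1.56 CPM over 9 libraries. Untreated blood replicate 1 had 0 counts, where 3 counts would be 0.0744 CPM, and this limit covers counting error only. In the 9-library comparisons between 2 groups Il1a did not pass in the model of all groups, with 95% intervals of −5.22 to 0.49 for treatment in liver and −0.06 to 4.75 for treatment in blood on the log2 scale. In a fit of only the groups compared it passed for treatment in liver (adjusted p = 0.021) and for liver against blood in treated mice (0.000744). Without untreated blood replicate 2, which left 2 counts in that group, the adjusted p was 0.012 for treatment in blood and 0.00856 for untreated liver against untreated blood. The difference between the treatment effects, −4.71 ± 1.67 (adjusted p = 0.037), passed, but not when untreated liver replicate 2 (0.164), treated liver replicate 1 (0.117) or 2 (0.115), or treated blood replicate 2 (0.108) or 3 (0.065) was left out. Counts of the antisense gene Gm14023, which overlaps an Il1a exon, were 4 to 32 in these libraries and in several exceeded those of Il1a, and whether reads were counted by strand is not given in the sources used here.

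In the antibody table Il1a was at 5.24 to 65.0 CPM. The isotype libraries held 27.7, 34.1 and 37.9 CPM. With anti-IL35 it was at 5.24 and 15.3 CPM and with anti-TGFb at 14.8 and 23.8 CPM. Both groups lay below the isotype libraries without overlap, and neither passed, with log2 fold changes of −1.70 ± 0.50 (adjusted p = 0.0535) and −0.79 ± 0.48 (adjusted p = 0.238). The anti-IL35 difference passed in DESeq2 (adjusted p = 0.0033), under upper-quartile scaling (0.0451) and with a block for title number (0.0484) or library-name number (0.0445). The test of any difference among the 6 groups gave Il1a an adjusted p of 0.0148. The remaining antibody groups held 13.6 to 65.0 CPM and overlapped the isotype libraries.

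Il18, the gene of interleukin-18 (chromosome 9, 50554827 to 50581840, plus strand), followed another pattern. Untreated liver held 16.9 and 22.3 CPM. Treated liver held 3.20 and 2.69 CPM. Neither group overlapped the other, and Il18 fell with treatment by a log2 fold change of −2.73 ± 0.24 (adjusted p = 1.36e-05), the largest called change of a member in that comparison. Blood held 6.63, 7.49 and 6.48 CPM in untreated and 9.54 and 8.77 CPM in treated mice, a log2 difference of 0.41 ± 0.20 (adjusted p = 0.144). The treatment effects differed between the tissues by −3.15 ± 0.31 (adjusted p = 6.01e-05). Relative to blood, liver Il18 was higher in untreated mice, by 1.51 ± 0.20 (adjusted p = 0.00013), and lower in treated mice, by −1.64 ± 0.23 (adjusted p = 0.00135). These calls held without each library in turn and under every scaling run. Beside them stood 11885 to 15341 CPM of hepatocyte markers, 1603 to 2071 CPM of B and plasma cell markers and 62.4 to 104 CPM of Kupffer cell and macrophage markers in untreated liver, against 57.6 to 67.4, 324 to 373 and 45.9 to 46.8 CPM in treated liver, and their part in the Il18 difference was not tested.

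With anti-GCF, Il18 stood at 23.6, 23.0 and 43.8 CPM, and with isotype at 2.28, 3.24 and 4.40 CPM. All anti-GCF libraries were above all isotype libraries, and Il18 rose by a log2 fold change of 3.18 ± 0.51 (adjusted p = 0.00021). The anti-GCF libraries also held 4784 to 9525 CPM of Kupffer cell and macrophage markers, against 111 to 401 CPM with isotype, and 2422 to 4801 against 236 to 540.0 CPM of monocyte markers, and their part was not tested. In the other antibody groups Il18 was at 1.60 to 5.11 CPM with anti-IL21R, anti-TGFb and anti-IL10, and at 2.62 and 12.6 CPM with anti-IL35, whose replicate 2 was above the isotype range. None of these 4 passed with all libraries, although anti-IL35 without replicate 1 had an adjusted p of 0.00577, and the 95% interval of the log2 difference was −1.76 to 0.42 for anti-IL21R, −0.66 to 1.66 for anti-TGFb, 0.04 to 2.34 for anti-IL35 and −1.20 to 1.16 for anti-IL10.

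Il1rn, the gene of the receptor antagonist (chromosome 2, 24336853 to 24351494, plus strand), stood at 715, 568 and 416 CPM in untreated blood. In treated blood it stood at 247 and 246 CPM. Every untreated library was above both treated ones, and Il1rn fell with treatment in blood by a log2 fold change of −1.20 ± 0.22 (adjusted p = 0.00384), with an adjusted p of 0.0505 without treated replicate 3. In liver the untreated libraries held 220.4 and 227 CPM and the treated ones 255 and 285 CPM, a log2 difference of 0.27 ± 0.23 (adjusted p = 0.324) with a 95% interval of −0.25 to 0.79 and an adjusted p of 0.0464 in a fit of these 2 groups alone. The effects in liver and blood differed, by 1.47 ± 0.32 (adjusted p = 0.00363), and this call held without each library in turn. Untreated liver was lower than untreated blood by −1.34 ± 0.22 (adjusted p = 0.000517), whereas treated liver and treated blood differed by 0.13 ± 0.23 (adjusted p = 0.741).

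With isotype, Il1rn was at 241, 330.1 and 278 CPM. Anti-TGFb libraries held 133 and 145 CPM. These lay below all isotype libraries, and Il1rn fell by a log2 fold change of −1.03 ± 0.32 (adjusted p = 0.0304). That call was lost without the anti-GCF libraries in the fit (adjusted p = 0.055), without isotype replicate 2 (0.0873) or 3 (0.0547), and without anti-TGFb replicate 1 (0.167) or 2 (0.138). Anti-IL10 libraries held 186 and 181 CPM, below the isotype libraries, with a log2 difference of −0.62 ± 0.32 (adjusted p = 0.176). Neutrophil markers also summed lower with anti-TGFb and anti-IL10 than with isotype, as given above, and their part was not tested. Anti-GCF and anti-IL21R libraries, at 196, 179 and 275 CPM and 250.1, 232 and 201 CPM, overlapped the isotype range. With anti-IL35 the values were 306 and 811 CPM, and replicate 2 was again the highest of the table; the log2 difference was 0.98 ± 0.31 (adjusted p = 0.0603), DESeq2 gave it an adjusted p of 0.0302, and without replicate 1 it was 1.52 (adjusted p = 0.000689).

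Il1r2, the gene of the decoy receptor (chromosome 1, 40074079 to 40125231, plus strand), showed the largest change among the members in the antibody table. Isotype libraries held 2635, 2863 and 3368 CPM. Anti-GCF libraries held 145, 241 and 264 CPM. The groups were far apart, and Il1r2 fell by a log2 fold change of −3.77 ± 0.29 (adjusted p = 1.3e-06), from 2955 ± 375 to 217 ± 63.3 CPM (SD, n = 3 each), a fold of 13.6. Over the same libraries the summed neutrophil markers stood at 117351 to 139095 and 18695 to 24703 CPM, and their part in the change was not tested.

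Anti-TGFb libraries held 904 and 928 CPM of Il1r2, anti-IL10 libraries 938 and 1389 CPM, and anti-IL35 libraries 1027 and 612 CPM. All 3 groups lay below the isotype libraries and above the anti-GCF libraries, without overlap with either. Il1r2 fell by log2 fold changes of −1.69 ± 0.31 (adjusted p = 0.0018), −1.34 ± 0.30 (adjusted p = 0.0117) and −1.85 ± 0.31 (adjusted p = 0.00495). The anti-IL10 call was lost without anti-IL10 replicate 1 (adjusted p = 0.179), and the anti-IL35 call without anti-IL35 replicate 2 (0.0631) or in a fit of these 2 groups alone (0.163). Anti-IL21R libraries, at 4152, 4111 and 3172 CPM, were the one antibody group that overlapped isotype, with a log2 difference of 0.37 ± 0.26 (adjusted p = 0.42) and a 95% interval of −0.19 to 0.93. The neutrophil marker sums were 68253 to 74453 CPM with anti-TGFb, 36614 to 77497 CPM with anti-IL10, 110778 to 169773 CPM with anti-IL35 and 116960.0 to 159891 CPM with anti-IL21R.

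In the 9-library table Il1r2 was lower than in most antibody libraries. Untreated liver held 74.0 and 96.3 CPM and treated liver 155 and 162 CPM. The treated libraries were above the untreated ones, beside the marker sums of liver given above, whose part was not tested. Il1r2 rose by a log2 fold change of 0.90 ± 0.17 (adjusted p = 0.00124). In blood it was at 236, 219 and 247 CPM in untreated and 333 and 329.6 CPM in treated mice, and it rose by 0.50 ± 0.15 (adjusted p = 0.0312), a call lost without untreated replicate 1 (adjusted p = 0.0604) or 2 (0.0913) and treated replicate 2 (0.16) or 3 (0.157), and with a block for title number (0.071) or library-name number (0.0706). The treatment effects in the 2 tissues differed by 0.40 ± 0.23 (adjusted p = 0.168), by 0.61 (adjusted p = 0.0338) under upper-quartile scaling, and by 0.73 (adjusted p = 0.0223) without untreated liver replicate 2. Liver was below blood by −1.46 ± 0.16 (adjusted p = 4.22e-05) in untreated and by −1.06 ± 0.17 (adjusted p = 0.00251) in treated mice, without overlap. The treated liver libraries of this table and the isotype libraries of the other both come from livers of treated mice, yet Il1r2 was at 159 ± 4.63 CPM (n = 2) in the former and 2955 ± 375 CPM (n = 3) in the latter; Il1a was at 0.144 ± 0.0175 and 33.2 ± 5.18 CPM, Nlrp3 at 217 ± 23.2 and 1058 ± 146 CPM, and Il1rn at 269.8 ± 21.0 and 283 ± 44.7 CPM. The tables were scaled separately and no test was made across them.

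The balance of ligand to antagonist and decoy was taken within each library as the log2 ratio of counts, which needs no scaling between libraries. It is a description, with no test. A ratio within a library can still differ with the mix of cells in it, and that part was not tested. The log2 ratio of Il1b to Il1rn was 1.96, 1.60 and 2.17 in the isotype libraries. With anti-GCF it was 3.87, 4.23 and 3.69. With anti-IL10 it was 3.91 and 3.70 and with anti-TGFb 3.56 and 3.50. These 3 groups lay above the isotype libraries without overlap, by 2.02, 1.89 and 1.62 on the log2 scale. The anti-IL21R libraries, at 2.37, 2.69 and 2.79, were also above isotype, and the anti-IL35 libraries, at 1.89 and 3.17, overlapped it.

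Against the decoy the contrast was wider. The log2 ratio of Il1b to Il1r2 was −1.48, −1.51 and −1.43 with isotype and −1.68, −1.46 and −1.19 with anti-IL21R, so that Il1r2 had more counts than Il1b in each of these 6 libraries. In all other antibody libraries Il1b had more. The ratio was 0.80 and 0.82 with anti-TGFb, 1.58 and 0.76 with anti-IL10, 0.14 and 3.58 with anti-IL35 and 4.30, 3.80 and 3.75 with anti-GCF. Relative to the isotype mean, these group means were higher by 2.28, 2.64, 3.34 and 5.43 on the log2 scale, the last a fold of 43.1. Beside that fold, neutrophil markers summed to 18695 to 24703 CPM with anti-GCF and 117351 to 139095 CPM with isotype. Kupffer cell and macrophage markers summed to 4784 to 9525 and 111 to 401 CPM, and the part of the cell mix was not tested. Il1b and Il1r2 transcripts are of nearly the same annotated length, 1907 and 1908 bases of exon, whereas Il1rn spans 5535.

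In liver both ratios were lower in treated than in untreated mice. The log2 ratio of Il1b to Il1rn was 2.51 and 1.97 in untreated and 1.08 and 0.92 in treated liver. The log2 ratio of Il1b to Il1r2 was 4.08 and 3.21 and 1.80 and 1.74. The mean differences were −1.23 and −1.88, and neither pair of groups overlapped. In blood the ratios moved apart. That of Il1b to Il1rn was 2.78, 3.27 and 2.68 in untreated and 3.39 and 3.33 in treated mice, higher with treatment, and that of Il1b to Il1r2 was 4.38, 4.64 and 3.44 and 2.96 and 2.91, lower with treatment. Il1a had fewer counts than Il1rn and Il1r2 in all 24 libraries. In the antibody table the log2 ratio of Il1a to Il1r2 was −6.57, −6.39 and −6.47 with isotype and −3.41, −2.77 and −3.19 with anti-GCF.

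**Figure D3:**
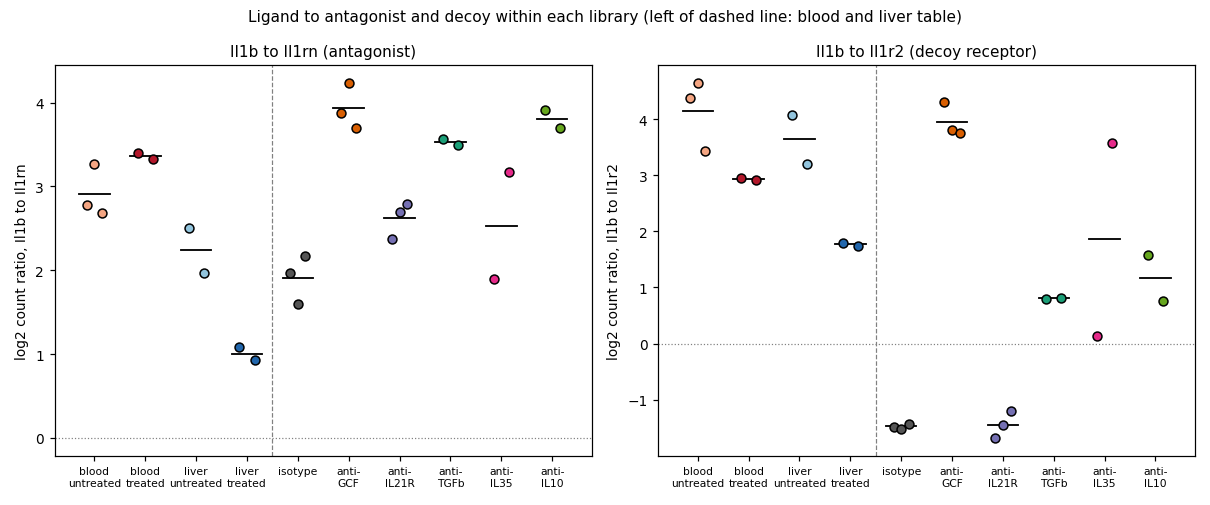
Log2 ratio of Il1b counts to Il1rn counts and to Il1r2 counts in each of the 24 libraries, with points as libraries and short lines as group means. The dotted line marks equal counts and the dashed line separates the 2 tables. Isotype and anti-IL21R libraries are the only ones below equality, and only for the decoy.

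Il1r1, the signalling receptor (chromosome 1, 40225080 to 40317257, plus strand), was scarce, at 0 to 2.28 CPM over blood and liver and 0.404 to 2.23 CPM over the antibody libraries. Untreated liver held the most in the 9-library table, 1.77 and 2.28 CPM, against 0, 0.304 and 0.165 CPM in untreated blood, where replicate 1 had 0 counts and 3 counts would be 0.0744 CPM. Those groups did not overlap, and the log2 difference was 3.67 ± 0.81 (adjusted p = 0.00302). Treated liver held 0.423 and 0.538 CPM and treated blood 0.57 and 0.635 CPM. The treatment differences, −2.06 ± 0.83 (adjusted p = 0.0528) in liver and 1.93 ± 0.83 (adjusted p = 0.101) in blood, did not pass, while the difference between them did, at −4.00 ± 1.17 (adjusted p = 0.0167). The liver difference did pass in DESeq2 (adjusted p = 0.0317), with a block for library-name number (0.0413) and in a fit of these 2 groups alone (0.00368). Without untreated blood replicate 2 the blood difference had an adjusted p of 0.0401. The call on the difference between the effects was lost without untreated liver replicate 2 (adjusted p = 0.0661), treated liver replicate 1 (0.069) or 2 (0.0598), or treated blood replicate 3 (0.0525). In the antibody table no comparison with all libraries passed for Il1r1, anti-IL35 without its replicate 1 had an adjusted p of 0.0182, and the test over all 6 groups gave an adjusted p of 0.135.

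Il1rap, the co-receptor that also serves other receptors of the family (chromosome 16, 26581704 to 26730117, plus strand), was at 241, 268 and 163 CPM in untreated and 238 and 226 CPM in treated blood. Liver was lower, with 77.2 and 77.7 CPM in untreated and 43.8 and 41.5 CPM in treated mice. No liver library reached any blood library, and the log2 difference of liver from blood was −1.53 ± 0.21 (adjusted p = 0.000163) in untreated and −2.44 ± 0.23 (adjusted p = 0.000178) in treated mice. Il1rap fell with treatment in liver by a log2 fold change of −0.86 ± 0.22 (adjusted p = 0.00705), a call lost without untreated replicate 1 (adjusted p = 0.0633) or 2 (0.0689) or treated replicate 2 (0.0552). The untreated liver value is uncertain, because the antisense gene Gm20319, which overlaps an Il1rap exon, had 2965 and 4626 counts there, 88.1% and 137% of the Il1rap counts, and at most 23 counts in the other 7 libraries of the table. In blood the log2 difference with treatment was 0.05 ± 0.20 (adjusted p = 0.873).

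Among the antibody groups Il1rap ranged from 39.8 to 198 CPM, with the highest value in anti-IL35 replicate 2 and 41.7, 64.5 and 60.8 CPM with isotype. None of the 5 comparisons with isotype passed in edgeR's test, and the test over all 6 groups gave an adjusted p of 0.0355. With anti-IL35 the log2 difference was 1.15 ± 0.41 (adjusted p = 0.096), DESeq2 gave it an adjusted p of 0.0419, and without replicate 1 it was 1.83 (adjusted p = 0.000265). Across libraries Il1rap followed Il1b, with a Pearson correlation of log2 CPM of 0.96 over the 9 libraries and 0.84 over the 15. These correlations describe libraries that also differ in cell composition and depth.

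Nlrp3, the sensor of the canonical inflammasome (chromosome 11, 59541568 to 59566956, plus strand), was at 129 and 100.2 CPM in untreated liver. In treated liver it was at 201 and 233 CPM. Both treated libraries were above both untreated ones, beside the marker sums of liver given above, whose part was not tested. Nlrp3 rose by a log2 fold change of 0.92 ± 0.21 (adjusted p = 0.0038). Blood held 364, 403 and 280.3 CPM in untreated and 293 and 294 CPM in treated mice. These groups overlapped, with a log2 difference of −0.25 ± 0.19 (adjusted p = 0.339), and the effects in the 2 tissues differed by 1.17 ± 0.29 (adjusted p = 0.00683), a call that held without each library in turn. Untreated liver was below untreated blood by −1.61 ± 0.20 (adjusted p = 9.44e-05), and treated liver and treated blood differed by −0.43 ± 0.21 (adjusted p = 0.178), with an adjusted p of 0.00363 in a fit of only those 2 groups, where 52.6% of all genes were called.

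In the antibody table Nlrp3 was at 927, 1030.1 and 1216 CPM with isotype. With anti-GCF it was at 429, 507 and 534 CPM and with anti-TGFb at 519.7 and 597 CPM. Both groups lay below the isotype libraries, as did their neutrophil marker sums given above, whose part was not tested. Nlrp3 fell by −1.11 ± 0.26 (adjusted p = 0.00246) with anti-GCF and by −0.92 ± 0.30 (adjusted p = 0.0343) with anti-TGFb. The anti-TGFb call was lost with a block for title number (adjusted p = 0.0571), without the anti-GCF libraries in the fit (0.0751) and without isotype replicate 2 (0.0649) or 3 (0.0887) or anti-TGFb replicate 1 (0.199) or 2 (0.132). Anti-IL10 libraries held 1009.6 and 753 CPM, anti-IL35 libraries 578 and 1376 CPM and anti-IL21R libraries 1266, 1462 and 1248 CPM. The first of these 3 overlapped isotype, the second spread to both sides of it, and the third lay above it without passing, at 0.33 ± 0.26 (adjusted p = 0.472).

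Casp1, the gene of the protease that cuts the precursors of interleukin-1 beta and interleukin-18 (chromosome 9, 5298517 to 5307265, plus strand), was at 26.4 and 16.2 CPM in untreated liver. In treated liver it was at 58.2 and 61.9 CPM. The groups were well separated, as were the marker sums of liver given above, whose part was not tested. Casp1 rose by a log2 fold change of 1.49 ± 0.25 (adjusted p = 0.000581), the largest called rise of a member in that comparison. In blood the values were 61.4, 63.9 and 85.6 CPM in untreated and 85.7 and 85.5 CPM in treated mice. Untreated replicate 3 reached the treated libraries, and the log2 difference was 0.28 ± 0.22 (adjusted p = 0.342). The effects in liver and blood differed by 1.21 ± 0.33 (adjusted p = 0.0121). Untreated liver was below untreated blood by −1.72 ± 0.24 (adjusted p = 0.000162), and treated liver and treated blood differed by −0.51 ± 0.24 (adjusted p = 0.169), with an adjusted p of 0.000713 in a fit of only those 2 groups.

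Over the antibody libraries Casp1 was at 34.7 to 74.2 CPM. Isotype libraries held 38.9, 34.7 and 39.6 CPM. Anti-GCF libraries held 61.2, 55.4 and 73.1 CPM. The latter were all higher, and Casp1 rose by 0.74 ± 0.24 (adjusted p = 0.0155), a call lost without isotype replicate 2 (adjusted p = 0.0514) or anti-GCF replicate 3 (0.0609). No other antibody comparison passed for Casp1, and the test over all 6 groups gave an adjusted p of 0.132.

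**Figure D4:**
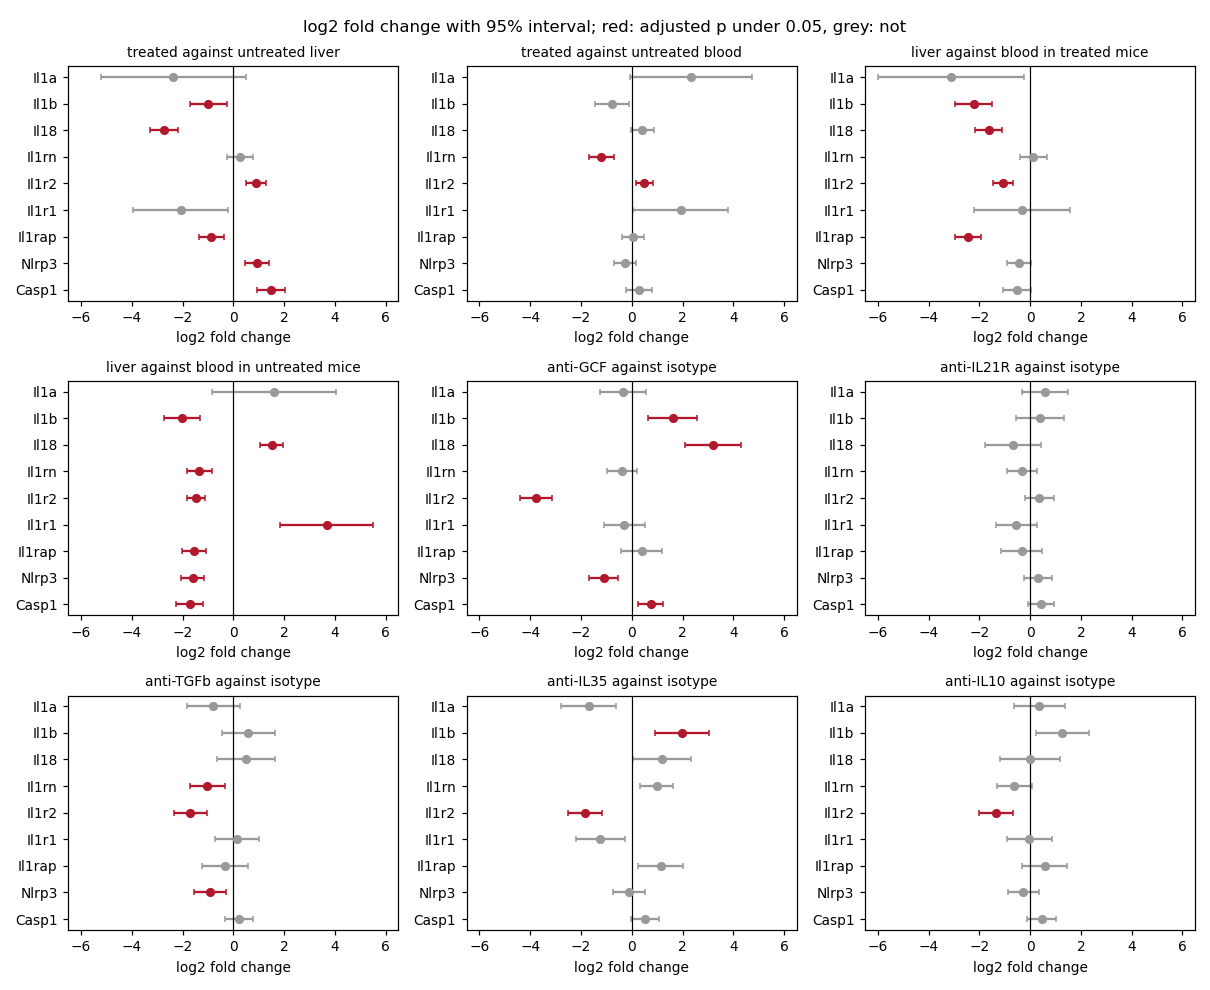
Log2 fold change of each member in the 9 comparisons between 2 groups, with the 95% interval from the fit. Red points passed an adjusted p of 0.05 over all tested genes and grey points did not. Il1r2 is red and negative in 4 of the 5 antibody panels, and the widest intervals belong to Il1a and Il1r1.

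Compared per kilobase of annotated exon, the levels of the members kept a steep order. In untreated blood the mean was 2283 CPM per kb for Il1b, 123 for Il1r2, 102 for Il1rn, 86.0 for Nlrp3, 47.0 for Casp1, 19.8 for Il1rap, 6.66 for Il18, 0.121 for Il1a and 0.0246 for Il1r1. With isotype, Il1r2 led at 1549 CPM per kb, followed by Il1b at 558 and Nlrp3 at 261. Il1r1 was the lowest member in every group by this measure except treated liver, where Il1a was lowest at 0.0732 CPM per kb beside 0.0755 for Il1r1.

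The genes whose levels ran most like those of 4 members were taken from 13961 genes tested in both tables, by the mean of the Pearson correlations of log2 CPM over the 9 and over the 15 libraries. For Il1b these were Prr5l (0.98 and 0.95), Adgre5 (0.99 and 0.93) and Marcks (0.99 and 0.91). For Il1rn they were Cdk2ap2, Cebpd and Orai1, for Il1r2 Bend4, Klf13 and Hdc, and for Nlrp3 Kdm6b, Slfn2 and Susd6, with means of 0.926 to 0.955. Among the members themselves, Il1r2 and Nlrp3 correlated at 0.85 over the 9 and 0.78 over the 15 libraries. Il1b and Il1r2 correlated at 0.58 over the 9 libraries and at −0.71 over the 15. The libraries of a group share treatment, composition and preparation, so these are descriptions with no test.

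Of 40 other genes listed for the pathway, 36 were tested in the 9-library and 37 in the antibody table. In treated against untreated liver 19 of the 36 rose and 6 fell, where 27.8% of all tested genes rose and 36.3% fell. In treated against untreated blood 8 rose and 7 fell, where 17.4% and 16.2% of all genes did. Serpinb1a, an inhibitor of neutrophil proteases and inflammatory caspases, rose in liver by a log2 fold change of 3.42 ± 0.59 (SE), from 60.4 to 646 CPM. Il18rap, a chain of the interleukin-18 receptor, rose by 2.60 ± 0.33, and Il18bp, the soluble inhibitor of interleukin-18, by 2.37 ± 0.32. Naip2, a sensor of bacterial secretion proteins, rose by 1.77 ± 0.19, and Irak3, a brake on signalling below the receptor, by 1.72 ± 0.14. In the same comparison Nek7, a partner of Nlrp3, fell by 1.18 ± 0.15, Ninj1, which ruptures membranes of dying cells, by 1.89 ± 0.34 and the kinase Irak1 by 1.32 ± 0.16. Il36g, another ligand of the family, rose by 1.12 ± 0.21. These changes stood beside the marker sums of liver given above, whose part was not tested.

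In treated blood Mefv, the pyrin sensor, rose by 1.26 ± 0.13, Nlrp1b by 1.03 ± 0.20, the ATP receptor P2rx7 by 1.88 ± 0.39 and Il18r1 by 1.39 ± 0.36. Ninj1 fell by 1.80 ± 0.32, Myd88, the adaptor of interleukin-1 and Toll-like receptors, by 0.74 ± 0.16 and Tollip by 0.60 ± 0.16. Between the tissues, 4 of 36 genes were higher and 21 lower in untreated liver than in untreated blood, where 35.6% and 28.7% of all genes were. In treated mice 2 were higher and 8 lower, where 9.71% and 11.6% of all genes were. Nlrp12 was lower in untreated liver by −1.80 ± 0.16 and Myd88 by −1.85 ± 0.17, and in treated mice Mefv was lower by −2.36 ± 0.15 and Casp4, the caspase that senses cytosolic lipopolysaccharide, by −1.73 ± 0.25. The treatment effect differed between the tissues for 20 of the 36, a share near the 54.7% of all tested genes, and among them were Irak3 at 2.17 ± 0.19, Mefv at −1.54 ± 0.19, Il18rap at 2.10 ± 0.43, Gsdmd, the pore protein of pyroptosis, at 1.12 ± 0.21 and Sigirr, an inhibitory receptor, at −2.65 ± 0.48.

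With anti-GCF 16 of 37 genes of the list rose and 11 fell, where 31.6% of all tested genes rose and 26.3% fell. Of the 12 sensors and adaptors 9 rose, with a median log2 fold change of 1.05 beside 0.11 over all tested genes, among them Nlrc4 by 3.36 ± 0.37 and Nlrp1a by 2.48 ± 0.24. P2rx7 rose by 2.98 ± 0.32, and Il1rl2, the receptor of interleukin-36, by 2.21 ± 0.26. Serpinb1a fell by 2.37 ± 0.34, the kinase Irak2 by 2.04 ± 0.15, Tollip by 1.81 ± 0.16, Il18rap by 1.56 ± 0.21 and Il36g by 1.26 ± 0.36. Il36a was at 0 counts in the 3 anti-GCF libraries and at a mean of 0.274 CPM with isotype. Kupffer cell and macrophage markers, at 4784 to 9525 against 111 to 401 CPM, moved with these genes, and their part was not tested.

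Fewer genes of the list, and fewer of all genes, were called with the other antibodies. With anti-TGFb 7 rose and 7 fell (17.5% and 10.0% of all genes), including P2rx7 at 2.57 ± 0.34, Nlrc4 at 1.85 ± 0.39, Nlrp1a at 1.71 ± 0.26, Sigirr at 1.35 ± 0.31, Irak2 at −1.10 ± 0.17 and Tollip at −0.93 ± 0.18. With anti-IL10 6 rose and 3 fell (10.6% and 6.98%), including P2rx7 at 2.03 ± 0.34, Nlrc4 at 1.77 ± 0.39, Il1rl1, the receptor of interleukin-33, at 1.56 ± 0.37, and Irak2 at −0.77 ± 0.17. With anti-IL35 5 rose and 4 fell (4.81% and 4.51%), with Nlrp12 at 2.29 ± 0.46 and Irak2 at −1.30 ± 0.17. With anti-IL21R 1 gene of the list was called, beside 1.08% of all genes called higher: Irak2, which rose by 0.77 ± 0.15, from 172 to 293 CPM. Irak2 was thus called in all 5 antibody comparisons of the main fit, which share the isotype libraries, higher with anti-IL21R and lower with the other 4. In a fit of only the anti-IL35 and isotype libraries 0 of 14496 genes were called, so Irak2 was not. Other refits were followed for the members only. For anti-IL21R the genes called over refits ran from 2, without its replicate 2 or 3, to 2123 without isotype replicate 1, beside 375 in the main fit.

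**Figure D5:**
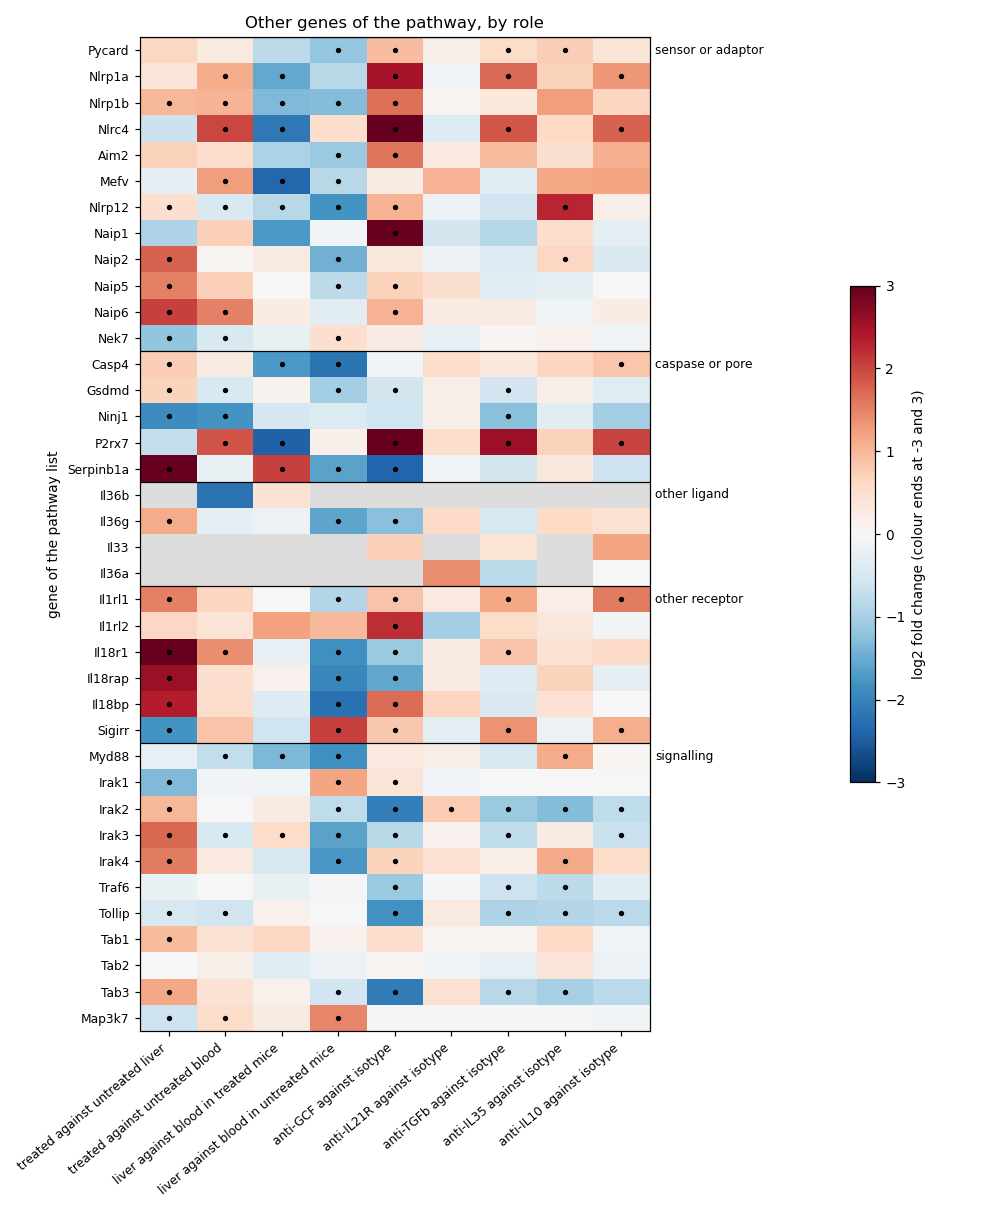
Log2 fold change of the other genes of the pathway list, in rows by role, over the 9 comparisons between 2 groups, in columns. Colours end at −3 and 3 on the log2 scale, dots mark an adjusted p under 0.05, and grey cells were not tested or had a group mean under 0.1 CPM. The column of anti-GCF holds 9 dotted red cells among the 12 sensors and adaptors, and the column of anti-IL21R holds 1 dot.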

How the data were processed

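Per the labels, RNeasy Mini kits and TruSeq Stranded mRNA libraries were used. Per the submitters' processing notes the build was mm10, and STAR 2.5.3a, Bowtie2 2.2.5, DESeq2 and Partek were run, in roles that are not stated. The authors deposited raw counts per gene for the 15 antibody libraries and, for the 9 blood and liver libraries, expected counts, which were rounded. Neither table was scaled between libraries.

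Each table was tested alone, because they were deposited separately: genes kept by filterByExpr (16719 and 16812), TMM scaling, and a model of group alone over every library of that table, tested by the robust quasi-likelihood F test of edgeR 4.0.16. P-values were adjusted by Benjamini-Hochberg over all tested genes, with a threshold of 0.05. The SE is the size of the log2 fold change divided by the square root of F. Ratios used counts plus 0.5. The method was also run on counts simulated from the fitted spread, with few changed genes. In treated against untreated liver 64.1% of all tested genes were called, so those runs cannot show how it does with changes that broad. The alternatives were RLE and upper-quartile scaling, DESeq2 1.42.0, no filter, replicate blocks, smaller fits and leaving out each library. Positions come from GENCODE M21 and promoters from RefSeq. All 9 members are named, with up to 2 called genes per role of the pathway list, by smallest adjusted p. The members and lists were chosen with earlier results of these data known.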

Additional observations from a re-analysis of the deposited data

Results flagged for a closer look

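For 7 members the log2 effect of treatment differed between liver and blood by the test of that difference itself. Of all tested genes, 54.7% differed in this way. The effect was more positive in liver for Il1rn, whose effects were 0.27 in liver and −1.20 in blood and differed by 1.47 ± 0.32 (adjusted p = 0.00363), for Nlrp3, with 0.92 in liver and −0.25 in blood and a difference of 1.17 ± 0.29 (adjusted p = 0.00683), and for Casp1, with 1.49 in liver and 0.28 in blood and a difference of 1.21 ± 0.33 (adjusted p = 0.0121). It was more negative in liver for Il18, with −2.73 in liver and 0.41 in blood and a difference of −3.15 ± 0.31 (adjusted p = 6.01e-05). For Il1rap the difference was −0.91 ± 0.30 (adjusted p = 0.0263), from −0.86 in liver and 0.05 in blood, and the call was lost under upper-quartile scaling (adjusted p = 0.0836) and without any one of the 4 liver or 2 treated blood libraries (adjusted p of 0.065 to 0.0974). The Il1rap value in untreated liver is uncertain, because the overlapping antisense gene Gm20319 had 2965 and 4626 counts there. The scarce genes Il1a and Il1r1 differed by −4.71 ± 1.67 (adjusted p = 0.037) and −4.00 ± 1.17 (adjusted p = 0.0167). The effects were −2.36 in liver and 2.35 in blood for Il1a, and −2.06 in liver and 1.93 in blood for Il1r1. Their fitted values rest on 0 to 23 counts per library of Il1a and 0 to 11 of Il1r1 in untreated blood. All 7 differences also rest on the untreated liver libraries. Hepatocyte markers summed to 11885 to 15341 CPM there and to 57.6 to 67.4 CPM in treated liver. Neutrophil markers summed to 30690 to 32362 and 159683 to 163383 CPM, and the part of the cell mix was not tested.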

How the results depend on the processing

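Over 1161 alternative values of 90 log2 fold changes of members, 55 lost and 29 gained a call. No called value changed sign, and 19 uncalled ones did. The 36 differences of ligand ratios moved by less than the larger SD of the 2 groups in all 216 alternatives. Where a library was left out this outcome was fixed in advance, because dropping 1 of 2 or 3 values moves a mean by less than their SD. Only the alternative with 2 counts added before the log could have come out otherwise. Of the counts of called members, DESeq2 gave 5 for anti-IL35 (2 in the report), with 13.9% of all genes called (9.33%), and 2 for anti-IL10 (1), with 4037 of 16812 genes called (2961). A fit of only the groups compared gave 0 for anti-IL35, where 0 of 14496 genes were called, 2 for anti-IL10 (6.90%) and 7 for liver against blood in treated mice (4), where 52.6% of all genes were called (21.3%). For treatment in liver such a fit added calls on Il1a, Il1rn and Il1r1, where 73.4% of all genes were called (64.1%). The calls on Il1b and Il1rap for treatment in liver also depended on single libraries, as given above. Without the anti-GCF libraries the counts were 1 for anti-TGFb (3; 21.8% of all genes), 1 for anti-IL35 (4.36%) and 4 for any difference among the antibody groups (7). The cause was not tested. Leaving out each library gave 0 to 3 called members for treatment in blood, 4 to 7 for the difference between tissues, 0 to 6 for anti-IL35, 1 to 3 for anti-TGFb and 0 to 1 for anti-IL10; a fit that left 1 library in a group assumes it varies like the others. The lowest count for blood came without treated blood replicate 3 (9.98% of all genes called), and for anti-IL35 the count was 0 without its replicate 2 (1.13%) and 6 without its replicate 1 (20.1%). Upper-quartile scaling moved the median of all genes for treatment in liver from −0.29 to −0.02 on the log2 scale. A replicate block gave 1 called member for treatment in blood (2) by title number and by library-name number, 2 for anti-IL10 by library-name number and 2 for anti-TGFb by title number. Under both blocks the anti-IL35 count was 2, with Il1a gained and Il1b lost, and the library-name block ended the Il1b call and gave an Il1r1 call for treatment in liver. Deviations from the group mean of libraries with the same title number had r of −0.07 to 0.06 over 10 pairs for blood and liver. For the antibody libraries r was −0.30 to 0.29 over 33 pairs, 10 of them over 0.1. Deviations within a group of 2 or 3 libraries offset one another, so these r cannot show whether the numbers mark a shared block. Il1a and Il1r1 are limited by depth.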
